A study of Mus musculus with 8 samples.

Results

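The interferon-induced chemokines examined here are the genes Cxcl9, Cxcl10, Cxcl11 and Ccl5, chosen by gene symbol. Of these 4 symbols, 3 matched a row among the 22520 protein-coding genes of the table, and Cxcl11 was not analysed here. The study compared mRNA-seq profiles of liver cells from mice that lack the receptor LRP1 in endothelial cells (ECs) with those of their littermates. The sample labels give 4 libraries named Wildtype (WT) and 4 named LRP1 KO, of C57BL/6 mice at postnatal day 14. By the paper's methods both groups carried floxed alleles, LRP1 f/f, and the LRP1 KO mice also carried Cdh5-CreER, an inducible Cre driven by the promoter of the endothelial cadherin gene Cdh5. WT mice lacked this transgene, so that an effect of CreER itself and one of losing LRP1 cannot be told apart here. The cells were selected with beads coated with antibody to PECAM-1, an endothelial surface protein, and the labels call them liver microvesicular cells.

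Chemokines are small secreted proteins that guide leukocytes along a gradient. CXCL9, CXCL10 and CXCL11 bind the receptor CXCR3 on activated T cells and NK cells, whereas CCL5, also known as RANTES, binds CCR1, CCR3 and other receptors on T cells, monocytes and macrophages. Interferons raise transcription of these genes through STAT proteins and interferon regulatory factors, and Cxcl9 is best known as a target of interferon gamma. In the liver, endothelial cells, hepatocytes and Kupffer cells, the resident macrophages, can all produce them.

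Cxcl9, Cxcl10 and Cxcl11 lie next to each other on the minus strand of mouse chromosome 5. In the GENCODE annotation of GRCm38, Cxcl9 (ENSMUSG00000029417) spans 92321347 to 92328079, Cxcl10 (ENSMUSG00000034855) spans 92346638 to 92348889 and Cxcl11 spans 92359544 to 92365485. The start of Cxcl10 lies 20.8 kb from that of Cxcl9 and 16.6 kb from that of Cxcl11. Cxcl11 is annotated as a polymorphic pseudogene, a class for genes that are coding in some strains and not in others. Ccl5 (ENSMUSG00000035042) stands in the CC chemokine cluster of chromosome 11, on the minus strand from 83525778 to 83530518. Its nearest annotated neighbours are Heatr9 at 3603 bases and Ccl9 at 42401 bases.

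The 250 bases before the start of Cxcl10 and of Cxcl9 are shown because Cxcl10 was measured in the 8 libraries and its neighbour Cxcl9 was listed at 0 in 7 of them. Both are taken from RefSeq on GRCm38.p6, are written 5′ to 3′ on the minus strand, and span chr5:92348890-92349139 for Cxcl10 and chr5:92328080-92328329 for Cxcl9. Capitals mark exact matches on either strand to the interferon-stimulated response element (ISRE) core (GAAA, any 2 bases, GAAA), to the gamma-activated sequence (GAS) TTCNNNGAA, or to the NF-kB consensus in its form of 10 bases.
Cxcl10: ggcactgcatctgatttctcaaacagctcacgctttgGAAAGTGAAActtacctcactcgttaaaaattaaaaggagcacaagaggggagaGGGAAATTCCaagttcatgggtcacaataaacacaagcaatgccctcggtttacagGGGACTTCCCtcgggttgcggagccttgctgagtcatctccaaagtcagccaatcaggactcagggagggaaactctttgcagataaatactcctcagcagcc
Cxcl9: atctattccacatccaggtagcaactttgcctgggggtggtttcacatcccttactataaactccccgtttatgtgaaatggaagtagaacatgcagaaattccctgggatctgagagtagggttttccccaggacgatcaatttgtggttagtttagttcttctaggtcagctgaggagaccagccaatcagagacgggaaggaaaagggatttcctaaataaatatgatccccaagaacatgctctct
The Cxcl10 window held an ISRE core, GAAAGTGAAA, from 213 to 204 bases before the start. It also held 2 NF-kB matches that do not overlap it, GGGAAATTCC from 159 to 150 bases and GGGACTTCCC from 103 to 94 bases before the start. The Cxcl9 window held no exact match to the 3 motifs as searched, and other forms of these motifs were not searched. Over 32851 RefSeq promoter windows of the same length, the ISRE core was found in 2.98%, the GAS in 7.02% and the NF-kB consensus in 3.9%. A match describes the letters of this window and is not evidence that a factor binds there. No promoter entry was used for Ccl5 and Cxcl11.

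Each value below is a quantile-normalized signal from the authors' table, in which the libraries share nearly the same distribution of values. The signals summed to between 484445 and 485947 in a library, and the depth and the unit before normalization are unknown. WT and LRP1 KO were compared by limma on log2(signal + 1), with Benjamini-Hochberg adjustment over the 11391 genes whose signal reached 1 in 4 or more of the 8 libraries. A fold change on this scale understates the change of a gene with a low signal. Lrp1 checked the labels, at 56.2 to 85.1 in WT and 2.16 to 6.01 in LRP1 KO libraries. WT replicate 4 and LRP1 KO replicate 2 stood apart, being farthest from the other libraries of their group for 61.7% and 37.2% of genes.

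Ccl5 and Cxcl10 were upregulated in LRP1 KO libraries, and Cxcl9 was listed at 0 in 7 of the 8 libraries. A change of at least 2-fold upward at an adjusted p under 0.05 was called for 0.869% of all genes tested, and for Ccl5 and Cxcl10 among the members.

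The Ccl5 signal was 0.369, 0.246, 0.180 and 0.344 in WT replicates 1 to 4, and 2.42, 2.51, 2.37 and 2.34 in LRP1 KO replicates 1 to 4. The groups did not overlap, and the 4 LRP1 KO libraries lay close together, with an SD of 3.04% of their mean against 30.9% in WT. The WT mean was 0.284 ± 0.0878 (SD, n = 4) and the LRP1 KO mean was 2.41 ± 0.0733 (SD, n = 4), a ratio of 8.47. On the log2(signal + 1) scale the fold change was 1.41 (SE 0.068, limma adjusted p = 5.6e-07). Permuting the 4 against 4 libraries in an exact two-sided test gave p = 0.029, the smallest p this design allows. Ccl5 entered the test through its LRP1 KO libraries alone, since every WT signal was under 1. A gene that enters in this way always has separate groups and this permutation p, so neither adds to having passed the filter. Every LRP1 KO library was above every WT library for 20.0% of all genes tested. Fitted without this filter over 17959 genes, of which 12.0% were higher at an adjusted p under 0.05, its limma adjusted p was 4.7e-06.

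The Cxcl10 signal was 1.36, 1.22, 1.50 and 2.07 in WT replicates 1 to 4, and 4.42, 4.03, 4.58 and 5.19 in LRP1 KO replicates 1 to 4. The lowest LRP1 KO library, replicate 2, was above the highest WT library, replicate 4. Such a separation upward was seen for 20.0% of all genes tested. The mean rose from 1.54 ± 0.372 (SD, n = 4) to 4.55 ± 0.486 (SD, n = 4), a ratio of 2.96. On the log2 scale the fold change was 1.14 (SE 0.11, limma adjusted p = 3.6e-05), and the exact two-sided permutation p was 0.029. Ordered by this fold change among the 11391 genes, Ccl5 was 41st and Cxcl10 was 88th. Ordered by the ratio of mean signals, Ccl5 was 15th and Cxcl10 was 105th.

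Cxcl9 was listed at 0 in WT replicates 1 to 3 and in LRP1 KO replicates 1 to 4, and had a signal of 0.0145 in WT replicate 4. It fell below the filter on low signals. Without the filter its log2 fold change was -0.0052 (SE 0.0082, limma adjusted p = 0.68). No library had any of 70 ribosomal protein genes at 0.

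**Figure D1:**
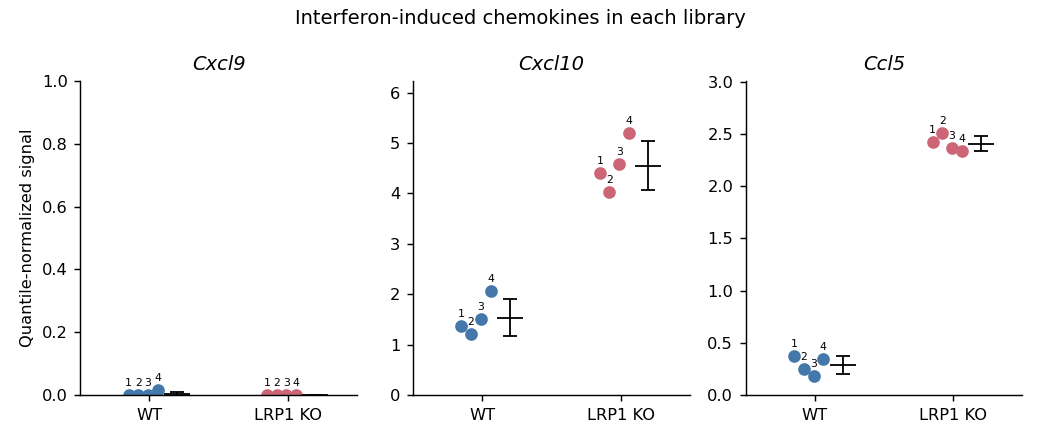
Quantile-normalized signal of Cxcl9, Cxcl10 and Ccl5 in each WT (blue) and LRP1 KO (red) library, with the replicate number above each point, the mean as a horizontal line and the SD as error bars (n = 4 per group, linear axes from 0, a different range in each panel). Ccl5 lay between 2.34 and 2.51 and Cxcl10 between 4.03 and 5.19 in LRP1 KO libraries, above the WT libraries, while Cxcl9 was at or near 0.

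Cxcl10 shares bases with a neighbour on the other strand, and without strand the reads of both cannot be told apart there. Art3, an ADP-ribosyltransferase gene on the plus strand, overlaps Cxcl10, with a longest exon overlap of 133 bases, and whether the counting used strand is not stated. Art3 was 15.4, 18.1, 17.2 and 15.9 in WT replicates and 6.89, 5.83, 7.04 and 7.95 in LRP1 KO replicates. The groups did not overlap and lay in the opposite order to those of Cxcl10, a separation downward that 22.5% of all genes tested showed. The log2 fold change of Art3 was -1.16 (SE 0.085, limma adjusted p = 8.3e-06), a 2-fold decrease of the kind called for 0.790% of all genes tested. Of the flanking genes, Sdad1 beyond Cxcl9 (log2 fold change 0.12, limma adjusted p = 0.095) and Nup54 beyond Cxcl11 (-0.07, adjusted p = 0.44) did not pass the test. Heatr9 beside Ccl5 was listed at 0 in the 8 libraries. None of the 2343 stretches of 50 bases in Cxcl10 transcripts, or of the 909 in Ccl5 transcripts, occurred in another gene's transcripts in the same direction. For Cxcl9 it was 14 of 2964. The opposite strand was not searched, so this count leaves out the bases that Cxcl10 shares with Art3.

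Cxcl10 and Ccl5 were next compared within each library, the 1 of 6 pairs of members in which both genes had a signal above 0. The Cxcl10 signal divided by the Ccl5 signal was 3.69, 4.96, 8.35 and 6.01 in WT replicates 1 to 4, and 1.82, 1.61, 1.94 and 2.22 in LRP1 KO replicates 1 to 4. Each LRP1 KO ratio was below each WT ratio. With 1 added to both signals, the mean log2 ratio of WT was 0.97 ± 0.19 and that of LRP1 KO 0.70 ± 0.15 (SD, n = 4 each), and the difference of -0.27 did not pass the test (exact two-sided permutation test, p = 0.11). With 0.1 added instead, the difference was -1.21 (exact permutation p = 0.029), and with 5 added it was 0.060 in the other direction (exact permutation p = 0.34). Whether the mix of the 2 chemokines differed between genotypes depended on the value added to the signals. Over the 8 libraries, which share the 2 genotypes, Pearson's r of the log2 signals of Cxcl10 and Ccl5 was 0.97, and after removal of the genotype means it was 0.12.

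The genes with the pattern most like that of Ccl5 over the 8 libraries were Apol9a (r = 0.998), Usp18 (0.998), a protease that removes ISG15, and Irgm2 (0.997), an immunity-related GTPase. Those most like Cxcl10 were the guanylate-binding protein gene Gm43302 (r = 0.994), listed elsewhere as Gbp6, then Sbsn (0.992) and Ifi27l2a (0.990). Each r includes the difference between genotypes. With genotype means removed, r was 0.78, 0.73 and 0.66 for the genes beside Ccl5 and 0.90, 0.87 and 0.85 for those beside Cxcl10. The genes were picked by their r over these same libraries, which by itself favours a high r within genotypes. Between genotypes Sbsn differed far less than Cxcl10, with a log2 fold change of 0.21.

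For the receptors of these chemokines, 1 of 7 genes passed the filter. That gene, Ackr3, encodes an atypical receptor that takes up CXCL11 and CXCL12, and it rose from 7.13 ± 0.135 to 8.70 ± 0.319 (SD, n = 4 each, log2 fold change 0.25, limma adjusted p = 0.0028). At an adjusted p under 0.05 without a fold threshold, 19.0% of all genes tested were higher and 22.2% were lower in LRP1 KO libraries. Cxcr3, the receptor of CXCL9 and CXCL10, was listed at 0 in 5 of the 8 libraries and reached 0.0360. Ccr3 was between 0.0114 and 0.0787 over the 8 libraries.

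Ccr1 was 0.736, 0.799, 0.886 and 0.693 in WT replicates, and 2.38, 0.937, 2.50 and 2.02 in LRP1 KO replicates. The groups did not overlap, with LRP1 KO replicate 2 close to the WT range. Without the filter, the limma adjusted p of Ccr1 was 0.022. Of the decoy receptors, Ackr1 was 0.294 ± 0.0993 in WT and 0.531 ± 0.0668 in LRP1 KO (SD, n = 4 each, limma adjusted p without the filter = 0.018), and Ackr2 was between 0.0244 and 0.202 over the libraries.

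Ccl5 shares its receptors with other CC chemokines, several of them in its own cluster. Of 8 such genes, 4 were tested, of which 1 was higher and 3 did not pass (median log2 fold change 0.71, against -0.0095 over all genes tested). The gene that passed was Ccl7, a monocyte chemoattractant, at 16.4 ± 1.70 in WT and 33.2 ± 5.83 in LRP1 KO (SD, n = 4 each, log2 fold change 0.96, limma adjusted p = 2.0e-04). Ccl6, a macrophage chemokine, was 6.70, 7.28, 9.24 and 4.81 in WT replicates, and 29.7, 1.29, 26.9 and 17.4 in LRP1 KO replicates (adjusted p = 0.37). Ccl3 was 0.910, 1.47, 1.15 and 0.370 in WT replicates, and 3.00, 0.136, 4.01 and 2.27 in LRP1 KO replicates (adjusted p = 0.25). Both genes were highest in LRP1 KO replicates 1, 3 and 4 and lowest of the 8 libraries in LRP1 KO replicate 2.

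Ccl9, the neighbour of Ccl5, was 1.33, 2.52, 2.65 and 2.61 in WT replicates, and 5.70, 1.69, 4.99 and 2.97 in LRP1 KO replicates, so that the groups overlapped (limma adjusted p = 0.16). Ccl4, below the filter, was also lowest of the 8 libraries in LRP1 KO replicate 2, with 0.233 there and 1.60 to 2.37 in the other LRP1 KO libraries. Ccl5 differed from Ccl6, Ccl3 and Ccl4 in this library, where its signal of 2.51 was the highest of the 8 libraries. It was not alone in this, as Ccl7 (39.9) and Ccl2 (94.8) were also highest of the 8 libraries there. Ccl8 was listed at 0 in 5 of the 8 libraries and reached 0.151 in LRP1 KO replicate 1.

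**Figure D2:**
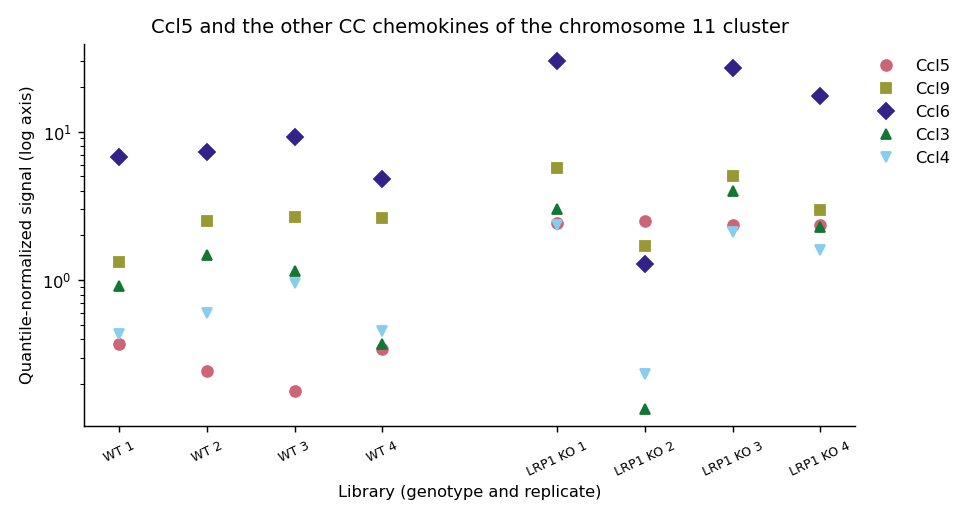
Quantile-normalized signal (log axis) of Ccl5 and of Ccl9, Ccl6, Ccl3 and Ccl4, other CC chemokines of chromosome 11, in each of the 4 WT and 4 LRP1 KO libraries, with 1 marker shape per gene. In LRP1 KO replicate 2, Ccl6 (1.29), Ccl3 (0.136) and Ccl4 (0.233) lay below their WT libraries, while Ccl5 (2.51) lay level with the other LRP1 KO libraries. Ccl7, which is not plotted, was at its highest there (39.9).

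The signal of 13 macrophage and Kupffer cell markers was set beside these chemokines, because such cells can express them. Their summed signal was 116 to 230 in WT libraries and 414 to 772 in LRP1 KO replicates 1, 3 and 4, but 55.7 in LRP1 KO replicate 2, where 13 of the 13 genes had their lowest LRP1 KO value. Of 10 markers tested, 1 was higher and 9 did not pass the test (median log2 fold change 1.19). The defining marker Clec4f was at 0 in WT libraries and at 0.124 to 0.826 in LRP1 KO libraries. In LRP1 KO replicate 2, Ccl5 was 2.51, its highest LRP1 KO value, and Cxcl10 was 4.03, its lowest LRP1 KO value, both above every WT library. Without that library, the log2 fold change was 1.40 for Ccl5 and 1.18 for Cxcl10 (limma adjusted p = 2.5e-06 and 7.8e-05). The part of macrophages in the chemokine values was not tested.

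Markers of T and NK cells, which can express Ccl5, summed to 0.261 to 0.785 in WT and 0.344 to 0.757 in LRP1 KO libraries. Of these 14 genes, 0 passed the filter and 4 were at 0 in the 8 libraries, namely Cd3g, Cd8a, Ncr1 and Gzma. Of 5 B cell markers 0 passed the filter, with Cd79b at 0 in the 8 libraries and sums of 0.0215 to 0.113 in WT and 0.0580 to 0.111 in LRP1 KO. Of 7 dendritic cell markers, 1 (Zbtb46) was tested and did not pass, and Flt3 and Siglech were at 0, with sums of 4.01 to 4.91 in WT and 4.15 to 4.70 in LRP1 KO. Of 9 neutrophil and monocyte markers, 1 (S100a8, log2 fold change 0.66, limma adjusted p = 0.041, or 0.086 without the filter) was tested and was higher, with Ly6g and Retnlg at 0. The sums of these 9 markers were 0.865 to 1.88 in WT and 1.49 to 3.97 in LRP1 KO. Platelets also store CCL5, and of 7 platelet markers 2 were tested and did not pass, with Gp9 and Ppbp at 0 and sums of 4.41 to 4.87 in WT and 3.55 to 12.0 in LRP1 KO. The part of these cells in the chemokine values was not tested, and in bulk libraries fewer cells of a type and less RNA per cell cannot be told apart.

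The labelled cell type was checked in the same way. Pan-endothelial markers were measured at low signals, with Pecam1 at 1.53 to 2.50 in WT and 1.84 to 3.85 in LRP1 KO and Cdh5 at 1.26 to 2.27 and 2.21 to 4.99. Of 8 such markers tested, 3 were higher (Eng, Esam and Cdh5) and 5 did not pass, and the 10 markers summed to 49.1 to 51.7 in WT and 58.1 to 81.8 in LRP1 KO libraries. Of 8 markers of sinusoidal endothelium, 4 were tested and 1 (Oit3) was higher, with sums of 7.44 to 11.2 in WT and 7.93 to 31.7 in LRP1 KO. The sinusoidal markers Stab2 and Clec4g were below the filter, at 0.459 to 0.538 and 0.146 to 0.444 in WT and 0.329 to 2.18 and 0.264 to 1.27 in LRP1 KO.

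Stellate cell and fibroblast markers summed to 1965 to 2284 in WT and 1741 to 2193 in LRP1 KO, most of it from Col1a2, Dcn and Col1a1, and of 6 tested 1 (Dcn) was lower. The markers therefore do not single out endothelial RNA, and the chemokine signals cannot be assigned to endothelial cells from these libraries. Hepatocyte markers were lower in LRP1 KO libraries for 5 of 5 tested (median log2 fold change -1.59), with sums of 92.1 to 138 in WT and 33.2 to 44.3 in LRP1 KO. Their part in the chemokine values was not tested.

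The other chemokines were examined beside Ccl5 and Cxcl10. Of 18 further chemokine genes, 9 were tested, of which 1 was higher, 4 were lower and 4 did not pass (median log2 fold change -0.21). Ccl2, the monocyte chemoattractant MCP-1, was higher (65.9 ± 4.69 in WT and 82.2 ± 10.2 in LRP1 KO, SD, n = 4 each, log2 fold change 0.31, limma adjusted p = 0.018). Cxcl12, which binds CXCR4 and retains haematopoietic cells, fell by 0.97 on the log2 scale (limma adjusted p = 1.6e-05). Cxcl13, a B cell chemoattractant, fell by 2.25, Cx3cl1 by 0.57 and Cxcl16 by 0.35. Of the 6 neutrophil-attracting CXC chemokines that carry the ELR motif, 1 was tested, Cxcl1, which fell by 0.40 (adjusted p = 0.0023). Of the 16 chemokine genes tested, Ccl5 and Cxcl10 had the 2 highest fold changes with a pseudocount of 1 or 0.1 and by the ratio of mean signals. With a pseudocount of 5 they were 5th and 3rd, and Ccl7 was highest (0.83).

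**Figure D3:**
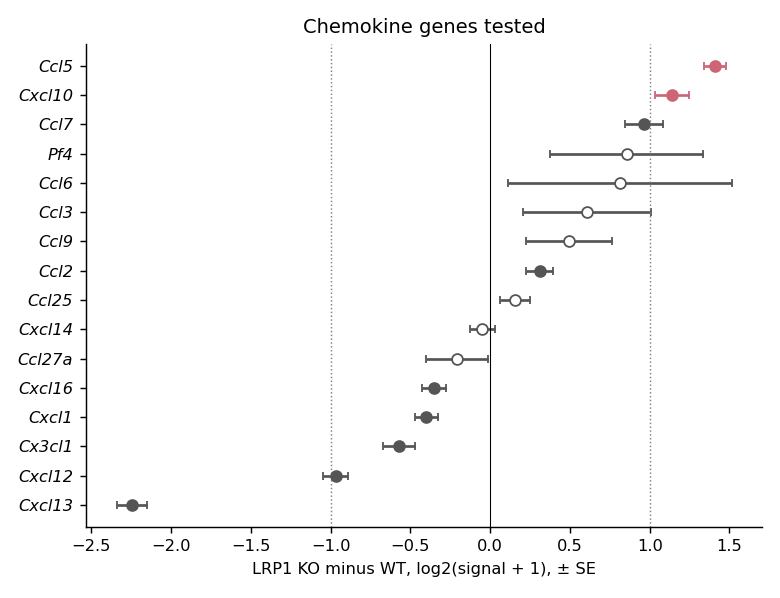
Difference between LRP1 KO and WT in mean log2(signal + 1) for the 16 chemokine genes tested, with the standard error as bars, filled circles for a limma adjusted p under 0.05, open circles otherwise, red for the members and dotted lines at a 2-fold change. With this pseudocount of 1, Ccl5 (1.41) and Cxcl10 (1.14) are highest, followed by Ccl7 (0.96), and Cxcl13 (-2.25) is lowest.

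The genes that carry interferon and TNF signals to these promoters were examined as a list of 38, of which 37 were in the table and 32 were tested. Of these, 12 were higher, 6 were lower and 14 did not pass (median log2 fold change 0.08), and 4 were higher by at least 2-fold. The 4 were Irf7, an interferon regulatory factor (10.2 ± 0.928 in WT and 65.0 ± 5.14 in LRP1 KO, SD, n = 4 each), the RNA sensors Ifih1 and Ddx58, and Stat2. Their log2 fold changes were 2.55, 1.33, 1.10 and 1.25, and their limma adjusted p-values were 1.7e-08, 1.6e-06, 6.9e-07 and 1.1e-07. Irf9 (0.995), an interferon regulatory factor that binds the ISRE together with STAT2, was also higher.

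Other members of the list went the other way or did not pass. Irf1, the transcription factor induced by interferon gamma, was 7.46 to 8.37 in WT and 5.78 to 7.02 in LRP1 KO libraries and fell by 0.25 on the log2 scale (limma adjusted p = 0.014). Socs3, an inhibitor of cytokine signalling, fell by 0.53 (adjusted p = 0.0047), and the TNF receptor gene Tnfrsf1a by 0.38 (adjusted p = 4.3e-04). The receptor genes Ifngr1 (log2 fold change 0.12, adjusted p = 0.10) and Ifnar1 (0.03, adjusted p = 0.71) and the NF-kB subunit gene Rela (0.11, adjusted p = 0.16) did not pass. Ifng, which encodes interferon gamma, was listed at 0 in the 8 libraries. Ifnb1, which encodes interferon beta, was listed at 0 in 6 libraries and was at 0.0405 and 0.0465 in LRP1 KO replicates 2 and 4.

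Genes that respond mainly to type I interferon were higher in LRP1 KO libraries for 18 of 18 tested, 14 of them by at least 2-fold, with a median log2 fold change of 2.44 and a range from 0.34 to 3.55. Of these 18 genes, 6 had every WT signal under 1 and so were tested only through their LRP1 KO libraries. Without the filter, 20 of 20 genes of the list were higher (median 2.38). The ubiquitin-like modifier gene Isg15 was 9.52 to 13.4 in WT and 124 to 148 in LRP1 KO libraries (log2 fold change 3.55, limma adjusted p = 8.1e-09). Ifit1, which binds viral RNA, was 1.78 ± 0.293 in WT and 28.4 ± 1.25 in LRP1 KO (SD, n = 4 each, log2 fold change 3.41, adjusted p = 2.6e-09). Rsad2, an antiviral enzyme with WT signals of 0.164 to 0.301, a range like that of Ccl5, reached 1.68 to 2.20 in LRP1 KO (log2 fold change 1.30, adjusted p = 2.0e-06). Like Ccl5 it entered the test through its LRP1 KO libraries alone, and without the filter its limma adjusted p was 1.5e-05.

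Genes weighted to the interferon gamma response were tested for 12 of 20 in the table, and 9 were higher, 2 lower and 1 did not pass (median log2 fold change 1.01). Of these 12 genes, 3 were tested through their LRP1 KO libraries alone, and without the filter 11 of 20 were higher, 2 lower and 7 did not pass (median 0.33). The GTPase genes Gbp3 (2.27), Irgm1 (1.45), Gbp2 (1.26) and Iigp1 (1.16) were among those higher. Of the antigen-presentation genes in this list, H2-Ab1 was tested and did not pass (0.03, limma adjusted p = 0.82). Without the filter, H2-Aa (0.04, limma adjusted p = 0.55), H2-Eb1 (-0.10, 0.31) and Cd74 (0.08, 0.16) did not pass either. Ciita was at most 0.0118 in any library. Many of these genes respond to both kinds of interferon, and Irf1 and Irf7 each stand in 2 of the lists. With 1 added to the signals, the list medians lay on either side of the fold changes of Ccl5 (1.41) and Cxcl10 (1.14). This placement depends on the value added, as Ccl5 was at 2.74 with 0.1 added and at 0.49 with 5 added. List medians were not computed for those values.

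**Figure D4:**
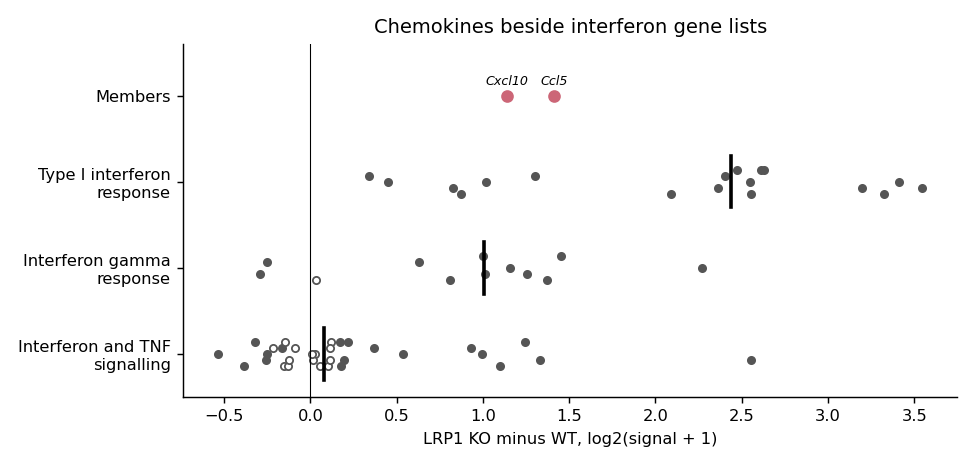
Difference between LRP1 KO and WT in mean log2(signal + 1) for Cxcl10 and Ccl5 (red) and for each tested gene of the lists of type I interferon response, interferon gamma response and interferon and TNF signalling, filled for a limma adjusted p under 0.05, with the list median as a vertical bar (vertical scatter is for display). Medians were 2.44, 1.01 and 0.08, and the members were at 1.14 and 1.41.

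Secreted chemokines are held on the endothelial surface by heparan sulphate, and dipeptidyl peptidase 4 trims them. Of 18 genes for these steps, 16 were tested, of which 6 were higher, 1 was lower and 9 did not pass (median log2 fold change 0.20). The core protein genes Sdc3 (1.12, limma adjusted p = 0.0011) and Sdc2 (0.59, adjusted p = 7.5e-05) and the heparan sulphate enzyme genes Glce (0.46, adjusted p = 2.6e-04) and Ext1 (0.37, adjusted p = 4.1e-04) were higher, and the sulphotransferase gene Hs2st1 was lower (-0.34, adjusted p = 0.0014). Sdc3 was 4.20 to 4.92 in WT libraries and 7.29 in LRP1 KO replicate 2, against 9.59 to 14.8 in the other LRP1 KO libraries. Dpp4 was 13.2 ± 0.819 in WT and 13.2 ± 1.30 in LRP1 KO (SD, n = 4 each, adjusted p = 0.98).

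The leukocyte adhesion molecules of endothelium, which act with chemokines in leukocyte arrest, were tested for 9 of 13 genes, and 1 was higher, 1 lower and 7 did not pass (median log2 fold change -0.09). Cd34, a sialomucin, was higher (0.30, limma adjusted p = 0.0061). Vcam1, the ligand of the integrin VLA-4, was 185 to 230 in WT and 143 to 188 in LRP1 KO, so that the groups overlapped, and it fell by 0.28 (adjusted p = 0.039, or 0.076 without the filter). Icam1, which like Cxcl10 is induced by TNF and interferon gamma, was 33.0 to 35.8 in WT and 33.2 to 41.1 in LRP1 KO (0.11, adjusted p = 0.22).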

How the data were processed

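Liver cells selected by PECAM-1 antibody were profiled by mRNA-seq in 4 WT and 4 LRP1 KO libraries, grouped by their labels. The authors deposited a quantile-normalized signal per gene and library, and each column was used. The unit before normalization is not stated, so the depth is unknown, no counting interval was computed, and a global shift between genotypes would have been removed. The submitters' processing notes name TopHat2, Cufflinks and mm10, whereas the paper's methods name STAR, featureCounts and edgeR, and which made this table is not stated.

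From the deposited signal, log2(signal + 1) was tested for genotype alone in limma 3.58.1 (R 4.3.3) with a mean-variance trend. Genes were tested where the signal reached 1 in 4 or more of 8 libraries. Calls needed an adjusted p under 0.05, with 2-fold where stated. For genes below the filter, a fit without it was used. Exact permutation tests of 4 against 4 libraries cannot give a p below 0.029. Labels do not say that libraries of a group came from separate animals, so p-values measure the spread between libraries. The calculation was tested on simulated data.

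The members and lists were chosen with earlier results of these data known. Named genes were the members, Lrp1, their receptors and neighbours, the 3 genes most correlated with each member, and from each list up to 6 with the smallest adjusted p and up to 3 with the highest mean. Those outside this rule (Ccl4, Ccl8, Irf1, Socs3, Ifngr1, Ifnar1, Rela, Dpp4, Icam1, Rsad2, Ifng, Ifnb1, Stab2, Clec4g, Clec4f and markers at 0) were chosen after their values were seen. So were H2-Ab1, H2-Aa, H2-Eb1, Cd74 and Ciita. Not every gene the rule allows is named, and results of some genes are not reported here.

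Positions were read from GENCODE M21 (GRCm38), which held 21740 of 22520 identifiers, and promoters from RefSeq, with an entry for 2 of the 4 symbols. Alternatives tried were no filter, pseudocounts of 0.1 and 5, a mean signal of at least 5, limma without trend, with robust moderation or with array weights, a replicate block, centring each library on its trimmed mean (30% trimmed at either end), a ratio of arithmetic means, no fold threshold, and leaving out each library. Plots were made in Python 3.11.15 with matplotlib 3.10.9.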

Additional observations from a re-analysis of the deposited data

Results flagged for a closer look

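A set of 61 genes was examined, which held the members but not every gene named above and none of the cell type markers. In each group of 4 libraries, 1 library was sought that stood apart from the others. Its gap to the nearest other, divided by the range of the group, had to exceed Dixon's critical value for 4 values. Of 118 groups, 10 had such a library, where chance gives about 1 in 20 groups, or 5.9. Of the members, Cxcl9 was found in this way, with WT replicate 4 highest (gap over range 1.0, from a signal of 0.0145 against 0), whereas Cxcl10 and Ccl5 were not.

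WT replicate 4 was also highest for Cxcl13 (0.849) and Ifi27l2a (0.869) and lowest for Hs2st1 (0.906). WT replicate 1 was highest for Cxcr3 (1.0, with the others at 0) and lowest for Ccl9 (0.897). Among LRP1 KO libraries, replicate 2 was lowest for Irf1 (0.835), Ifngr1 (0.936) and Dpp4 (0.918), and replicate 3 was highest for Ddx58 (0.897).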

How the results depend on the processing

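The upward direction of Ccl5 and Cxcl10 and a limma adjusted p under 0.05 held under the alternatives that gave a tested value. With a pseudocount of 5, the log2 fold change was 0.49 for Ccl5 and 0.55 for Cxcl10 (limma adjusted p = 5.1e-07 and 2.7e-05), below the 2-fold threshold. The log2 ratio of arithmetic means was 3.08 for Ccl5 and 1.57 for Cxcl10. A larger pseudocount shrinks a low signal by construction. Leaving out 1 library, log2 fold changes ranged from 1.37 to 1.44 for Ccl5, from 1.08 to 1.23 for Cxcl10 and from -0.0069 to -0.0052 for Cxcl9 (limma). Without WT replicate 4 Cxcl9 was at 0 in the remaining libraries and gave no value, and a mean signal of at least 5 left no member to test.

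The difference in the log2 ratio of Cxcl10 to Ccl5 was -1.21 with a pseudocount of 0.1 and 0.060 with a pseudocount of 5, and ranged from -0.34 to -0.20 when 1 library was left out (exact permutation p from 0.057 to 0.20). Genes called higher and lower numbered 99 and 90, against 149 and 166 with a pseudocount of 0.1, 40 and 26 with a pseudocount of 5, and 2164 and 2526 by adjusted p alone. With a mean signal of at least 5, which tests fewer genes, 63 were higher. Leaving out 1 library gave 89 to 174 higher, with 174 without LRP1 KO replicate 2, and 83 to 105 lower. Without both that library and WT replicate 4, an alternative chosen after seeing the data, 163 were higher. The cause was not tested. List counts without the filter and the order of the chemokines under other pseudocounts were also added after seeing the data.

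Replicate numbers are shared between the groups, but deviations of same-numbered libraries correlated at -0.09, -0.13, 0.18 and 0.04 over 11391 genes, and 0 of 4 correlated best with their own number, so the libraries were not taken as paired. With the replicate block, limma adjusted p was 5.5e-05 for Ccl5 and 7.5e-05 for Cxcl10, and 102 genes were higher and 90 lower. The ratio difference of -0.27 had an exact p of 0.125 with the block. This is the smallest p that an exact test within 4 pairs of libraries can give. That test could not pass whatever the values, so it does not decide whether the ratio differed. The lack of a known depth limits what a listed 0 means for Cxcl9.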
